A study of Homo sapiens with 6 samples.

Results

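The replication-dependent histone genes of human cells were examined in RNA sequencing of the human hepatocellular carcinoma line MHCC97H, as a control line and as a line labelled a knockout of the RNA helicase gene DDX17. The members were all genes whose symbol names a histone of the HIST1, HIST2, HIST3 or HIST4 cluster in the class H1, H2A, H2B, H3 or H4, with symbols of named pseudogenes left out. Of 90 matching names, 15 were such pseudogenes, so that 75 of the 58302 genes in the table were members. They comprised 6 H1, 17 H2A, 23 H2B, 14 H3 and 15 H4 genes. On hg38, 55 members lay on chromosome 6, 19 on chromosome 1 and 1 on chromosome 12. GENCODE 29 called 70 of them protein-coding and 4 pseudogenes despite their names (HIST2H2BA, HIST2H2BB, HIST2H2BD and HIST3H2BA), and it had no entry for HIST2H2BC, whose RefSeq symbol H2BC20P is that of a pseudogene. The control group (control) was a non-target control line for CRISPR/Cas9, and the other group (DDX17_KO) was a DDX17 knockout line made in the same way. Both lines were grown in DMEM with fetal bovine serum, penicillin and streptomycin, the labels name no further treatment, and each gave 3 libraries from total RNA. The labels do not say whether a line was 1 clone or whether the libraries came from separate cultures, so that p-values measure the spread between these libraries, which may be technical.

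Replication-dependent histone genes supply the histones that package newly copied DNA. H2A, H2B, H3 and H4 form the core around which DNA is wrapped, and H1 binds the linker between cores. Their transcripts accumulate in S phase and, unlike almost all other messenger RNAs, normally end in a conserved stem-loop in place of a poly(A) tail. The stem-loop is bound by SLBP, and the 3′ end is cut with the help of the U7 small nuclear RNA. Some of these genes also make polyadenylated transcripts, mostly in cells that have stopped dividing. How RNA was selected for these libraries, by poly(A) tail or by removal of ribosomal RNA, is a detail the sources used here do not give.

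The stem-loop is shown first because it is what sets these transcripts apart from others. Its letters were searched in the GENCODE 29 transcripts as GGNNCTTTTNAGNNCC, on the transcript strand, and occurred in a model of 33 of the 75 members (44%), against 80 of 58676 genes (0.136%). The 33 members shared 5 forms, printed with the 4-base loop in capitals.
Form in 18 members: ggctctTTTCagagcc
Form in 5 members: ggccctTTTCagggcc
Another form in 5 members: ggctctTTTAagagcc
Form in 3 members: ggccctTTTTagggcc
Form in 2 members: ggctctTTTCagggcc
The forms differ in a few letters of loop and stem. They occurred in models of 7 H2A, 13 H2B, 5 H3 and 8 H4 genes. For 32 members the annotated model runs from start to stop codon only, so that the 3′ end is outside the model, and none of these 32 models held the letters.

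Promoters were read because H2A and H2B genes often lie back to back and share the DNA between them. RefSeq promoters on GRCh38.p14 (250 bases before to 50 after the start) matched 60 of the 75 members. The 12 H2A and H2B pairs that point away from each other were 218 to 330 bases apart. HIST1H2AM and HIST1H2BO were the pair with the highest levels, and the H4 gene HIST1H4B had the highest level of its class among those with little sequence shared with other genes. In the following promoter segments of 150 bases, capitals mark the octamer ATTTGCAT, its reverse complement ATGCAAAT or the TATA box letters TATAAA.
HIST1H2AM, chr6:27893186-27893335, minus strand: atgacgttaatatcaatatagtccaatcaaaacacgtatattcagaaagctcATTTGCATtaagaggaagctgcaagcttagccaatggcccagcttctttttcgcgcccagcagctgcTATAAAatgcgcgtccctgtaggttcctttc
HIST1H2BO, chr6:27893275-27893424, plus strand: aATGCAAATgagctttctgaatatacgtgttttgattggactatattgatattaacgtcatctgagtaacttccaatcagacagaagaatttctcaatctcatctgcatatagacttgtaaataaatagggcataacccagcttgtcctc
HIST1H4B, chr6:26027284-26027433, minus strand: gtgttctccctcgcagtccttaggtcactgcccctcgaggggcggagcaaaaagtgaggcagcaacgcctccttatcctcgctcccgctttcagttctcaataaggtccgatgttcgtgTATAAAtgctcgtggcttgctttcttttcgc
The octamer of HIST1H2AM and that of HIST1H2BO are the same 8 bases of chromosome 6, 27893276 to 27893283, read from opposite strands. Of 15 octamer positions in members' promoters, 6 lay in the promoters of 2 members, of which 5 were back-to-back pairs. The sixth was counted for HIST1H2AD and HIST1H3D, for which RefSeq gives the same window (chromosome 6, 26199294 to 26199543), next to HIST1H2AD and apart from the HIST1H3D locus in the files (26196840 to 26197250).

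On either strand of the 300-base windows, the octamer (the letters bound by the POU factor OCT1) was present in 11 of 16 H2A and 9 of 13 H2B promoters, in 1 of 12 H3 promoters (HIST1H3D, through the window it shares with HIST1H2AD) and in 0 of the 6 H1 and 13 H4 promoters. Among all 27305 promoters of the same length, 492 (1.8%) held it. The TATA box letters were in 40 of 60 members' promoters (66.7%) against 12% of all promoters. The letters CCAAT were in every H1, H2A, H2B and H3 promoter matched and in 3 of 13 H4 promoters (23.1%), against 35.7% of all. The letters TTTCGCGC, one form of the E2F site, were in 20% of the members' promoters and 0.546% of all. A match describes letters only, and overlaps between motifs were allowed. Windows of back-to-back genes can overlap, so that the same TATA box, CCAAT or E2F letters can be counted for both partners. In the 250 bases before its start, HIST1H2BO held the TATA box letters only on the opposite strand, and it was counted.

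**Figure D1:**
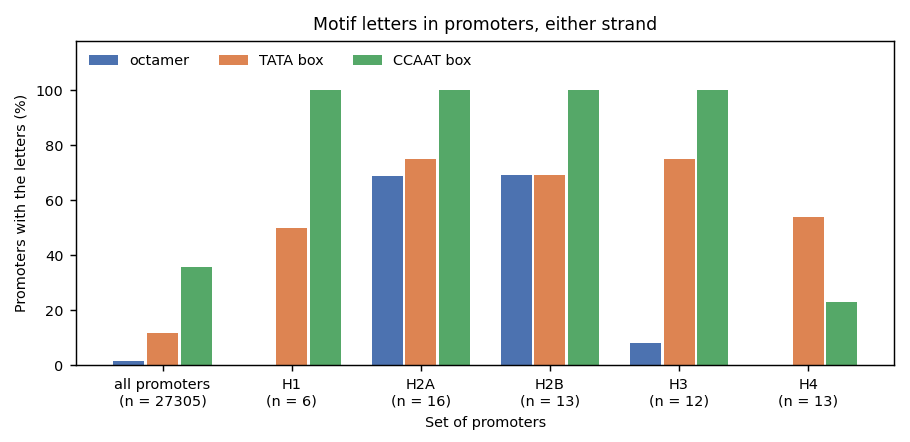
Share of 300-base promoters (percent, vertical axis) that hold the octamer, TATA box or CCAAT box letters on either strand, for all 27305 RefSeq promoters and for the promoters of each histone class. The octamer stands at 68.8% in H2A and 69.2% in H2B promoters and at 1.8% in all, and CCAAT is at 23.1% in H4 promoters and 100% in the other classes.

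Levels were deposited as FPKM, fragments scaled to the length of the gene model and to the size of the library. Steps between low values gave estimated depths of 12330000 to 14560000 fragments in the control libraries, and of 10620000, 5350000 and 8210000 fragments in DDX17_KO replicates 1, 2 and 3. The targeted gene DDX17 read 45.7, 41.4 and 43.9 FPKM for control replicates 1, 2 and 3 and 22.4, 7.64 and 19.1 FPKM for DDX17_KO replicates 1, 2 and 3. The transcript was therefore lower in all DDX17_KO libraries but not lost, and these values per gene do not show whether the gene was disrupted. It had a log2 fold change of -1.48 and an adjusted p of 0.282 (limma). Of 12 liver markers, KRT8 and KRT18 were abundant, while ALB was at most 0.365 FPKM and AFP at most 0.0665 FPKM. Both libraries numbered 2 stood apart from the rest across genes. A library's deviation from the mean of its own group was correlated by rank with GC content across genes. The rank correlation reached 0.584 for control replicate 2 and 0.533 for DDX17_KO replicate 2, and lay between -0.534 and -0.320 in the other 4. Deviations within a group balance each other, so that the signs of its libraries are not independent. The median GC content of the members was 57.4%, against 47.7% for all tested genes. Results that rest on these libraries are given with and without them.

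Histone RNA accounted for 2.27% to 4.28% of the FPKM of a library. The members' summed level was 10035, 13616 and 10987 FPKM in control replicates 1, 2 and 3, and 7221, 13952 and 5968 FPKM in DDX17_KO replicates 1, 2 and 3. DDX17_KO replicates 1 and 3 were below every control, and DDX17_KO replicate 2 was above every control, so that the groups overlapped (11546 ± 1855 against 9047 ± 4294 FPKM, SD, n = 3 each). These sums were 3.54%, 4.28% and 3.58% of all FPKM in the controls, and 2.73%, 3.78% and 2.27% in the DDX17_KO libraries. By class, H2A held 38.1% of the summed level in control and 36.5% in DDX17_KO, H2B 20.6% and 21.9%, H3 16.1% and 15.2%, H4 13.2% and 13.7%, and H1 12% and 12.8%. In bulk samples, fewer cells in S phase and less histone RNA per cell cannot be told apart.

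No member passed the test between DDX17_KO and control. A mean of at least 0.5 FPKM was reached by 61 members (4 H1, 16 H2A, 19 H2B, 10 H3 and 12 H4), which were tested among 15620 genes with limma on log2(FPKM + 1). At an adjusted p of 0.05, 0 members were higher (0% of all tested genes) and 0 were lower (0.0384% of all, 6 genes). The adjusted p of the members ran from 0.0633 to 0.951. At an unadjusted p of 0.05, 0 members were higher (6.31% of all) and 6 of 61 were lower (7.19% of all). The 6 were HIST1H2BI, HIST1H2BH, HIST1H2BL, HIST1H3G, HIST2H3D and HIST1H4D, and voom on approximate fragments also called 0 members. The other 14 members did not exceed 0.96 FPKM in any library, and HIST1H3E and HIST1H3I were listed at 0 in all 6.

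The tested members nevertheless lay mostly below their control mean. A log2 fold change below 0 was found for 56 of 61 members (52.5% of all tested genes), with a median of -0.44 against -0.03 for all tested genes. The medians were -0.44 for H1, -0.62 for H2A, -0.33 for H2B, -0.49 for H3 and -0.29 for H4. The 5 members above 0 were HIST4H4, HIST1H3J, HIST1H2AC, HIST2H2BB and HIST2H2BA, of which HIST2H2BB and HIST2H2BA are annotated as pseudogenes. These members move together across libraries and are not independent of each other. The median correlation of a pair of members over the 6 libraries was 0.892, and 47.1% of the 1830 pairs exceeded 0.9. No such value was computed for other genes, so that the correlation is not shown to be particular to the members. All share the libraries' depth and composition.

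**Figure D2:**
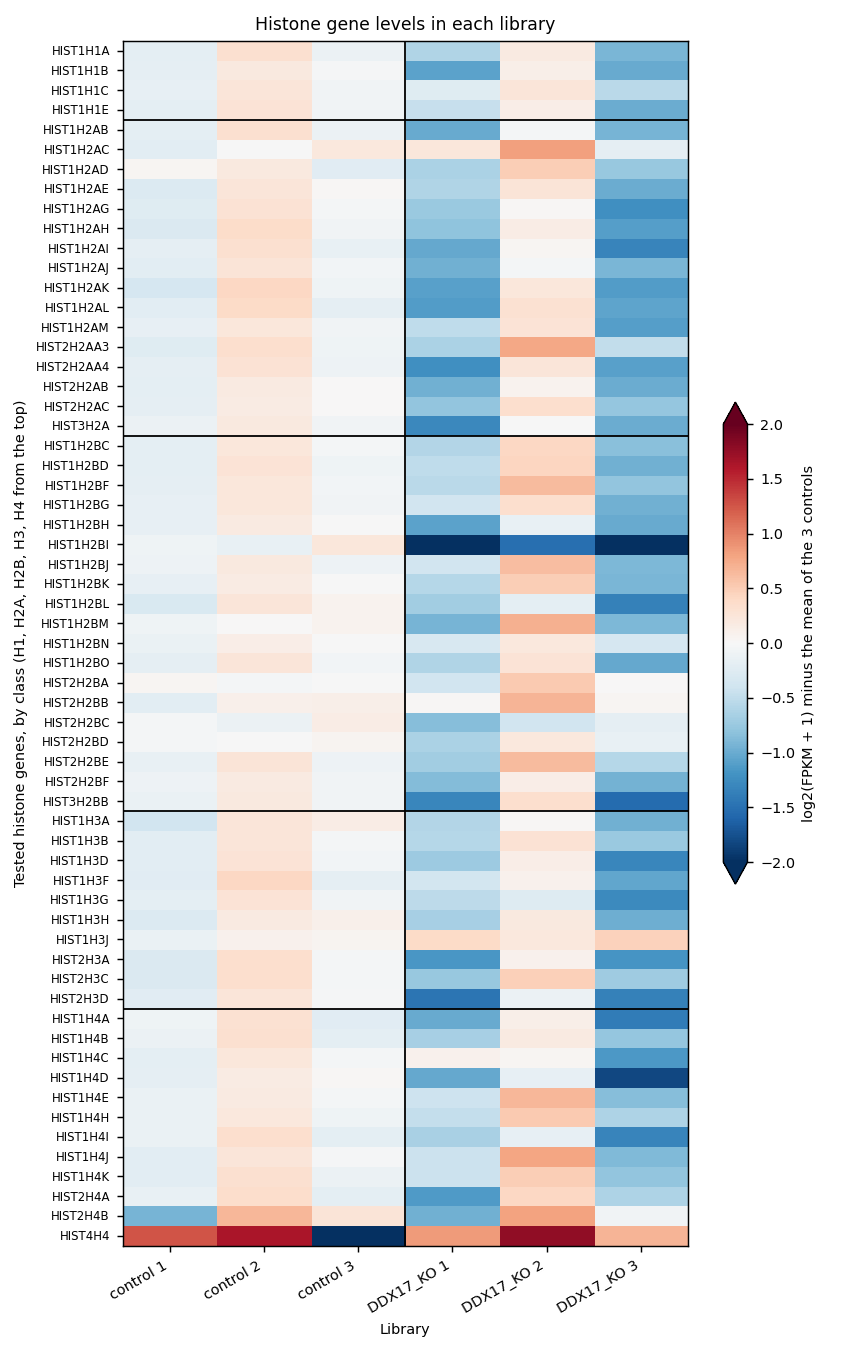
Level of each of the 61 tested histone genes (rows, by class) in the 6 libraries (columns), as log2(FPKM + 1) minus the mean of the 3 controls, on a colour scale from -2 to 2. DDX17_KO replicates 1 and 3 are blue for most genes, with medians of -0.64 and -0.95, while DDX17_KO replicate 2 has a median of 0.22 and control replicate 2 one of 0.24.

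The DDX17_KO libraries disagreed with each other. DDX17_KO replicates 1 and 3 were both below every control for 54 of 61 members (32.6% of all tested genes). DDX17_KO replicate 2 was above every control for 32 members (29.1% of all) and below every control for 3 (27.8% of all). Both libraries numbered 2 were the highest 2 for 45 members (20% of all). Differences between libraries of the same number, on the log2 scale, had a median of -0.42 for number 1 (57 of 61 below 0), 0.01 for number 2 (29 below 0) and -0.87 for number 3 (58 below 0). The likeness of the libraries numbered 2 and their GC dependence were measured, and their part in the histone levels was not tested.

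Among the H2A genes, whose products pair with H2B in the nucleosome core, HIST2H2AA4, HIST1H2AM and HIST2H2AC had the highest levels. HIST2H2AA4 was measured at 854, 1173 and 897 FPKM in the controls and at 412, 1140 and 452 FPKM in the DDX17_KO libraries, given here and below in the order of replicates 1, 2 and 3. DDX17_KO replicate 2 lay inside the control range and the other DDX17_KO libraries below it, with a log2 fold change of -0.69 (95% interval -1.60 to 0.22, limma adjusted p = 0.420). HIST2H2AA4 and HIST2H2AA3 are near-identical copies, so that the split of fragments between them is uncertain. HIST1H2AM stood at 706, 930 and 758 FPKM against 558, 954 and 370 FPKM, a log2 fold change of -0.44 (limma adjusted p = 0.517). It shares 86.3% of its 50-base words with the overlapping HIST1H3J model. HIST2H2AC stood at 691, 884 and 793 FPKM against 457, 995 and 461 FPKM, a log2 fold change of -0.40 (limma adjusted p = 0.533). In both genes DDX17_KO replicate 2 was the highest of all 6 libraries. The H2A gene with the greatest fold change in size was HIST1H2AI, at 130, 185 and 133 FPKM in the controls and 71.7, 152 and 58.1 FPKM in DDX17_KO (log2 fold change -0.77, limma adjusted p = 0.377). It shares 62.3% of its 50-base words with HIST1H2AJ. Of the 16 tested H2A genes, 15 were below 0, and HIST1H2AC was at 0.29.

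Among the H2B genes, HIST1H2BK, HIST1H2BO and HIST1H2BC led. HIST1H2BK was at 592, 748 and 664 FPKM in the controls and at 448, 936 and 352 FPKM in DDX17_KO (log2 fold change -0.33, limma adjusted p = 0.633). It shares 74.1% of its 50-base words with other genes, so that its level is uncertain. HIST1H2BO was at 593, 798 and 650 FPKM against 444, 813 and 331 FPKM (log2 fold change -0.45, limma adjusted p = 0.504). In these genes too, DDX17_KO replicates 1 and 3 were lowest and DDX17_KO replicate 2 highest. HIST1H2BC was at 205, 277 and 229 FPKM against 157, 314 and 132 FPKM (log2 fold change -0.33, limma adjusted p = 0.613).

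HIST1H2BI, an H2B gene of low level (chr6:26272976-26273356, plus strand), had the lowest adjusted p of all members and the greatest fold change in size. It was at 2.98, 2.83 and 3.97 FPKM in the controls and at 0, 0.49 and 0 FPKM in DDX17_KO. All 3 DDX17_KO libraries were below all controls, including DDX17_KO replicate 2, with a log2 fold change of -1.89 (95% interval -2.40 to -1.38, limma adjusted p = 0.0633). The values correspond to 14, 15 and 22 fragments in the controls and 0, 1 and 0 fragments in DDX17_KO, or 51 against 1 in all. Corrected for depth, DDX17_KO held 0.0331 of the control level (exact 95% interval 0.000822 to 0.193), which covers counting error only. At this model length 3 fragments equal 0.541 to 1.47 FPKM, depending on the library. With a correction for GC content and length, HIST1H2BI was the 1 member called lower (0.0643% of all tested genes), and 0 members were called higher (0.00643% of all). At an unadjusted p of 0.05, that fit had 13 of 60 members lower (7.49% of all) and 1 higher (8.26% of all). HIST1H2BI then had a log2 fold change of -1.76 and an adjusted p of 0.0456. A replicate block on the same corrected values ended this call (limma adjusted p = 0.0946). Over its 19 alternatives the limma adjusted p ran from 0.0114 to 0.367. Its nearest member, HIST1H3G, lies 1160 bases away, and it also had groups that did not overlap.

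Few other members had groups that did not overlap. In 3 members (12.6% of all tested genes) all DDX17_KO libraries were below all controls, namely HIST1H2BI, HIST2H2BC and HIST1H3G, and 1 was higher (8.09% of all), HIST1H3J. HIST2H2BC, a pseudogene by its RefSeq symbol, was at 4.75, 4.46 and 5.57 FPKM in the controls and 2.27, 3.54 and 4.20 FPKM in DDX17_KO (log2 fold change -0.47, limma adjusted p = 0.373). HIST1H3G, an H3 gene with a model of 2411 bases, was at 14.4, 20.3 and 15.8 FPKM against 11.2, 13.8 and 6.27 FPKM (log2 fold change -0.69, limma adjusted p = 0.369). HIST1H3J was at 0.26, 0.46 and 0.44 FPKM against 0.81, 0.60 and 0.91 FPKM (log2 fold change 0.35, limma adjusted p = 0.373). The HIST1H3J model overlaps HIST1H2AM, and 62.8% of its 50-base words are shared with that far more abundant gene, so that its level is uncertain. Both shares of non-overlapping members were below those of all tested genes.

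Red-cell markers moved in the same direction as HIST1H2BI. The sum of 6 red-cell markers was 69.6, 54.0 and 62.1 FPKM in the controls and 0.0211, 0.673 and 0.0844 FPKM in DDX17_KO, and 3 of them (HBB, HBA1 and HBA2) were called lower. The 4 white-cell markers summed to at most 0.164 FPKM and 3 endothelial markers to at most 0.752 FPKM. Liver markers ALB, APOA1, APOB, TF and SERPINA1 (each at most 0.365 FPKM) and endothelial CDH5 (at most 0.610 FPKM) were also lower without overlap. Such groups were found for 12.6% of all tested genes. SERPINA1 was at 0.0342, 0.0303 and 0.0174 FPKM in the controls and 0 in every DDX17_KO library. The DDX17_KO libraries were also shallower than the controls, and the part of depth in values this low was not tested. The other liver and endothelial markers overlapped, and all of these except KRT8 and KRT18 were too low to be tested. The 4 fibroblast markers summed to 36.8, 44.5 and 37.3 FPKM against 88.1, 46.4 and 54.9 FPKM, but did not move one way. COL3A1 made up most of the sum, and was at most 25.6 FPKM in the controls and at 79.8, 27.2 and 33.5 FPKM in DDX17_KO. COL1A1 was lower without overlap, at 12.4, 15.7 and 12.7 FPKM against 7.04, 11.5 and 6.11 FPKM. LUM ran from 1.2 to 15.2 FPKM within DDX17_KO, and DCN did not exceed 0.0632 FPKM. None of the 4 was called. The part of these other cell type markers in the HIST1H2BI result was not tested.

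H3 genes, which encode the partner of H4 in the core tetramer, were led by HIST1H3B, HIST1H3D and HIST2H3A. HIST1H3B was at 653, 891 and 736 FPKM in the controls and 509, 922 and 449 FPKM in DDX17_KO (log2 fold change -0.34, limma adjusted p = 0.567). HIST1H3D was at 426, 598 and 479 FPKM against 300, 544 and 199 FPKM (log2 fold change -0.63, limma adjusted p = 0.422). Every 50-base word of HIST1H3D also occurs in the overlapping gene model AL031777.3, and HIST2H3A is shared in full with its copy HIST2H3C. HIST2H3A was at 164, 254 and 195 FPKM against 88.8, 214 and 88.1 FPKM (log2 fold change -0.76, limma adjusted p = 0.389). The greatest H3 fold change in size was that of HIST2H3D, at 124, 172 and 142 FPKM in the controls and 51.8, 133 and 56.0 FPKM in DDX17_KO. Its DDX17_KO replicate 2 lay within the control range, and its log2 fold change was -0.98 (95% interval -1.83 to -0.13, limma adjusted p = 0.369).

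HIST1H4J, HIST1H4B and HIST1H4K led the H4 class. HIST1H4J was at 226, 312 and 258 FPKM in the controls and 195, 455 and 142 FPKM in DDX17_KO (log2 fold change -0.18, limma adjusted p = 0.836). HIST1H4K, whose 50-base words all occur in HIST1H4J, was at 148, 214 and 158 FPKM against 127, 242 and 98.4 FPKM (log2 fold change -0.24, limma adjusted p = 0.724). Without DDX17_KO replicate 3 the sign of both turned, to 0.18 and 0.035. HIST1H4B was at 218, 296 and 207 FPKM against 150, 268 and 139 FPKM (log2 fold change -0.42, limma adjusted p = 0.492). HIST4H4, the member on chromosome 12, had the greatest H4 fold change in size, 1.10 (95% interval -1.43 to 3.63, limma adjusted p = 0.610). It was at 26.6, 35.0 and 0.570 FPKM in the controls and 19.8, 38.6 and 17.5 FPKM in DDX17_KO. The value rests on control replicate 3, and without that library the log2 fold change was -0.35.

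The linker histone genes HIST1H1C, HIST1H1E and HIST1H1B led the H1 class. HIST1H1C was at 732, 965 and 781 FPKM in the controls and 696, 975 and 566 FPKM in DDX17_KO, with a log2 fold change of -0.17 (95% interval -0.75 to 0.41, limma adjusted p = 0.726). Without DDX17_KO replicate 3 its log2 fold change was 0.0065. HIST1H1E was at 254, 351 and 276 FPKM against 211, 319 and 145 FPKM (log2 fold change -0.44, limma adjusted p = 0.484). HIST1H1B was at 203, 263 and 226 FPKM against 109, 250 and 114 FPKM (log2 fold change -0.65, 95% interval -1.43 to 0.13, limma adjusted p = 0.396). In HIST1H1B, unlike HIST1H1C, both DDX17_KO replicates 1 and 3 lay far below the lowest control.

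**Figure D3:**
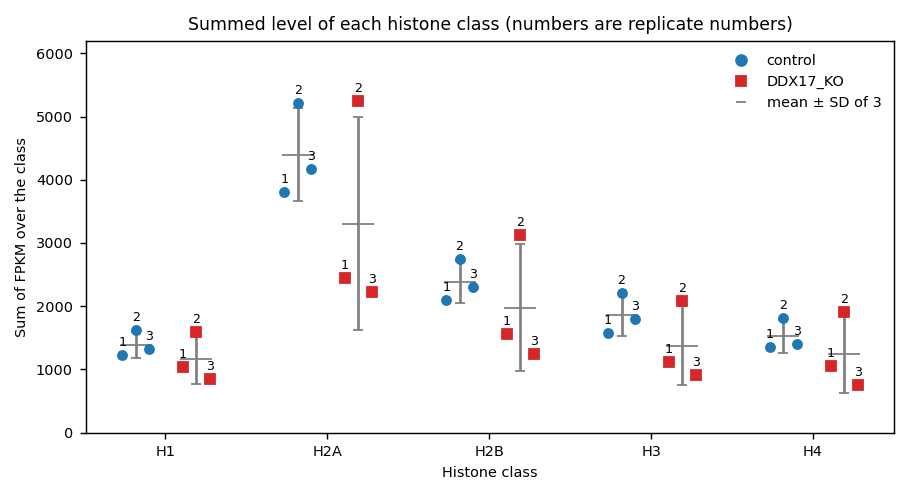
Summed FPKM of each histone class in every library (points, numbered by replicate), with the mean and SD of 3 libraries per group as grey lines. In every class DDX17_KO replicates 1 and 3 are below all controls, as in H2A at 2451 and 2221 against 3808 to 5217 FPKM, and DDX17_KO replicate 2 is at or near the top, at 5243 FPKM in H2A.

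The class sums repeated this order. H2A summed to 3808, 5217 and 4165 FPKM in the controls and 2451, 5243 and 2221 FPKM in DDX17_KO. H2B summed to 2092, 2744 and 2305 FPKM against 1566, 3126 and 1242 FPKM. H4 summed to 1347, 1818 and 1398 FPKM against 1050, 1912 and 745 FPKM. In these 3 classes DDX17_KO replicate 2 was the highest of the 6 libraries. H3 summed to 1568, 2214 and 1802 FPKM against 1114, 2086 and 917 FPKM, and H1 to 1220, 1624 and 1316 FPKM against 1039, 1585 and 843 FPKM. In H3 and H1 control replicate 2 was highest and DDX17_KO replicate 2 came next.

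**Figure D4:**
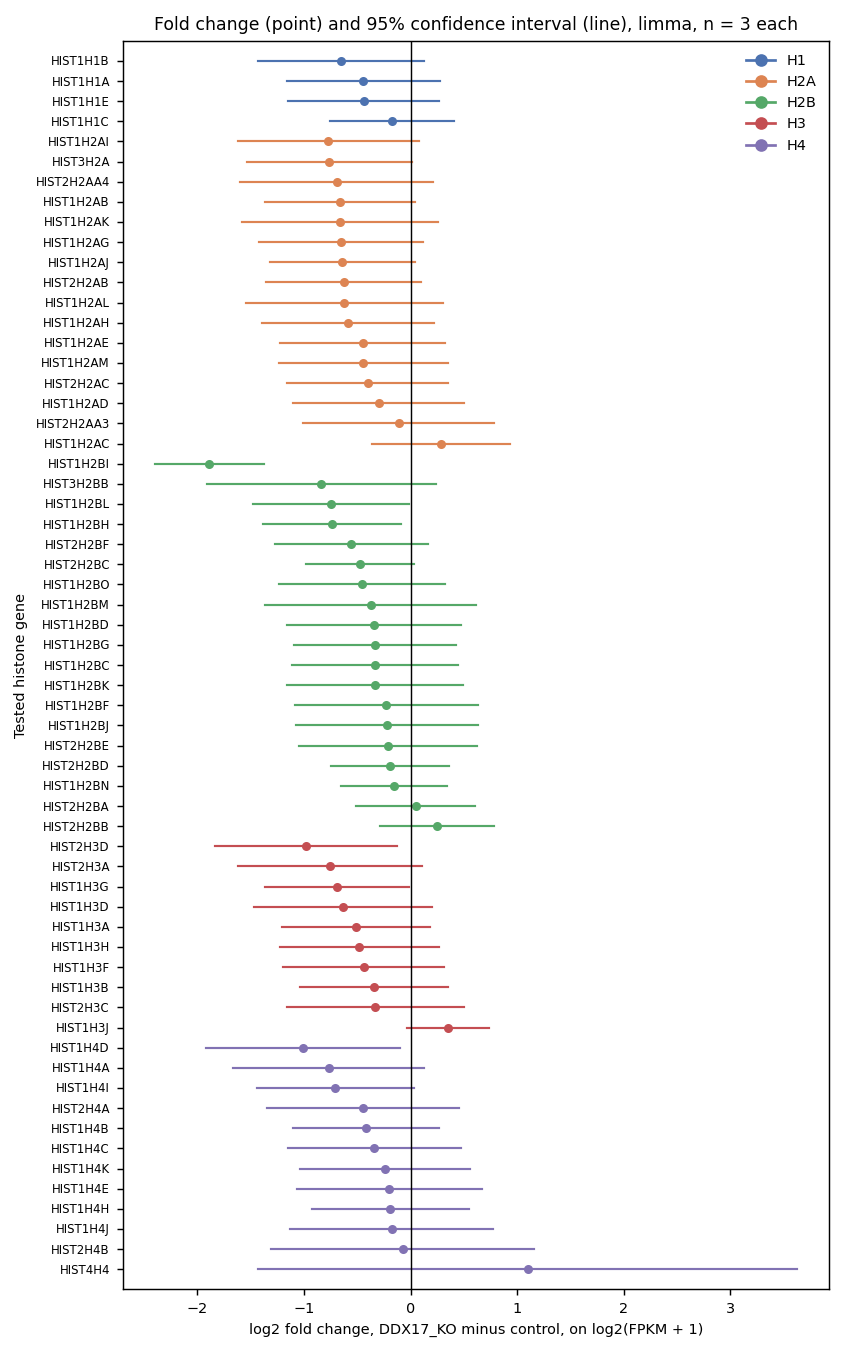
Log2 fold change of DDX17_KO against control on log2(FPKM + 1) for the 61 tested histone genes (points), with limma's 95% confidence interval (lines), coloured by class. HIST1H2BI stands apart at -1.89, most others lie between -1 and 0 with intervals that reach 0, and HIST4H4 at 1.10 has the widest interval.

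The count of members called depended on the libraries numbered 2. Without DDX17_KO replicate 2, the shallowest library, 15 of 61 members were lower (1.72% of all tested genes) and 0 were higher (1.95% of all). Unadjusted, 50 were at p below 0.05 and lower (19.1% of all) and 1 was higher (16.6% of all). The 15 members were 5 H2A genes (HIST3H2A, HIST2H2AA4, HIST2H2AB, HIST1H2AJ and HIST1H2AI), 5 H2B genes (HIST1H2BI, HIST1H2BM, HIST2H2BF, HIST1H2BH and HIST3H2BB), 2 H3 genes (HIST2H3A and HIST2H3D), 2 H4 genes (HIST1H4D and HIST1H4A) and HIST1H1B. In the library left out, 1 of these 15 was below every control and 6 were below the control mean. That library also had the lowest DDX17 level, at 7.64 FPKM against 22.4 and 19.1 FPKM in DDX17_KO replicates 1 and 3. The part of the DDX17 level in these calls was not tested. Without both libraries numbered 2, 20 members were lower (3.3% of all) and 0 higher (5.51% of all), and 14 of the 15 were among the 20. That fit had, at an unadjusted p of 0.05, 49 lower (18.2% of all) and 1 higher (15.9% of all). Both counts are from limma with Benjamini-Hochberg adjustment over all tested genes. Leaving out DDX17_KO replicate 2 put the members' median log2 fold change at -0.77, and leaving out DDX17_KO replicate 3 put it at -0.21. With a block for replicate number, 0 members were called in either direction (0% of all tested genes higher and 0.0256% lower). At an unadjusted p of 0.05 that fit had 25 of 61 members lower (13.4% of all) and 0 higher (15.1% of all).

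Position and gene model were compared within the members. The median log2 fold change was -0.44 over 43 tested members of HIST1, -0.40 over 15 of HIST2 and -0.80 over 2 of HIST3. Members with a model of coding length only were all below 0 (24 of 24 tested, median -0.55), and those with a longer model were below 0 in 32 of 37 (median -0.34). Their median GC contents were 60.3% and 48.5%. Leaving out the 18 members that share over 50% of their 50-base words with another gene kept 43 tested members, of which 41 were below 0 (median -0.45). Members with an octamer in the promoter had a median of -0.45 (18 tested) and those without it -0.44 (31 tested). Across members, Spearman's rho of the log2 fold change with GC content was -0.24 (n = 60), and with mean level it was -0.09 (n = 61).

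Fold changes of genes that lie back to back were set side by side. Of the 12 back-to-back H2A and H2B pairs, 11 had both genes tested, and the median size of the difference between partners was 0.11 on the log2 scale. Over the 293 combinations of a tested H2A and a tested H2B gene that are not partners it was 0.32. HIST1H2AM and HIST1H2BO, whose shared octamer is printed above, were at -0.44 and -0.45, and HIST1H2BL and HIST1H2AI were at -0.75 and -0.77. Other partners differed more, with HIST1H2BJ and HIST1H2AG at -0.22 and -0.65, HIST1H2AJ and HIST1H2BM at -0.64 and -0.37, and HIST1H2BK and HIST1H2AH at -0.33 and -0.59. The widest difference, 0.62, was that of HIST1H2BC at -0.33 and HIST1H2AC at 0.29. The HIST1H2AC model of 1668 bases runs 1128 bases past its stem-loop letters, and its level was 9.41, 11.0 and 13.0 FPKM in the controls and 13.1, 20.3 and 9.65 FPKM in DDX17_KO. All combinations share the libraries and genes recur in them, so that the medians are descriptions with no test, and nothing particular to partners was shown.

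Other abundant RNAs without a poly(A) tail were also highest in both libraries numbered 2. RN7SK, the 7SK RNA that holds the elongation factor P-TEFb inactive, was at 13902, 19956 and 17219 FPKM in the controls and 14254, 26373 and 11462 FPKM in DDX17_KO. RMRP, the RNA of the RNase MRP complex, was at 6857, 10397 and 8541 FPKM against 6216, 13449 and 5240 FPKM. The members' sum divided by RN7SK was 0.722, 0.682 and 0.638 in the controls and 0.507, 0.529 and 0.521 in DDX17_KO. These ratios did not overlap (0.681 ± 0.0419 against 0.519 ± 0.0114, SD, n = 3 each), and DDX17_KO replicate 2 fell among the other DDX17_KO libraries. Divided by RMRP, the sum was 1.46, 1.31 and 1.29 against 1.16, 1.04 and 1.14, also without overlap. Divided by the signal recognition particle RNAs RN7SL1 and RN7SL2, which have near-identical copies, the groups overlapped. The ratio to RN7SL1 was 1.72, 0.806 and 0.745 against 0.893, 0.767 and 0.904, and that to RN7SL2 was 1.34, 1.11 and 1.03 against 1.13, 0.923 and 0.996.

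**Figure D5:**
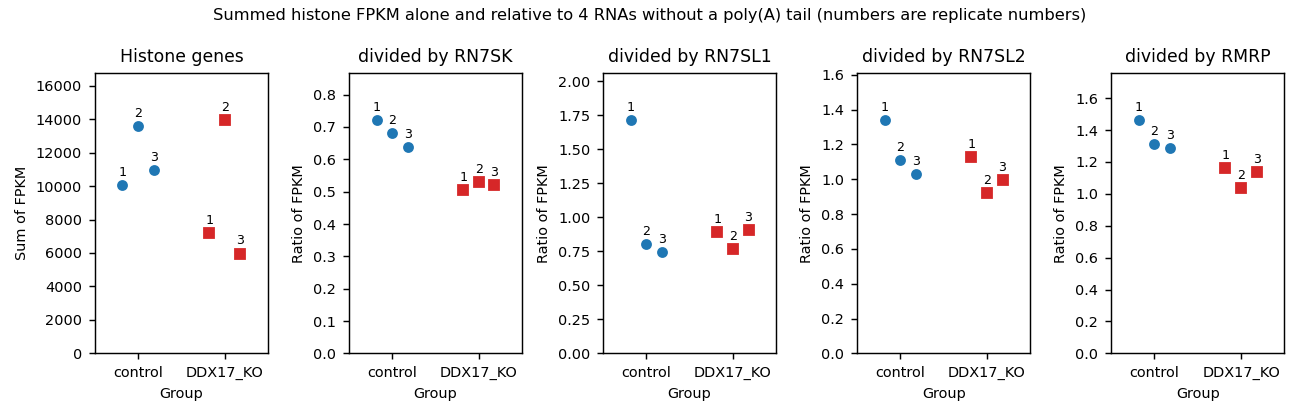
Summed FPKM of the 75 histone genes in each library (left) and that sum divided by the FPKM of RN7SK, RN7SL1, RN7SL2 or RMRP (vertical axes from 0), with points numbered by replicate. Relative to RN7SK the DDX17_KO libraries lie at 0.507 to 0.529 below controls at 0.638 to 0.722, whereas relative to RN7SL1 and RN7SL2 the groups overlap.

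Gene by gene, the ratio to RN7SK had all DDX17_KO libraries below all controls for 38 of 61 members (10.5% of all tested genes). For the ratio to RMRP this held for 29 members (6.11% of all), for RN7SL2 for 17 (3.25% of all) and for RN7SL1 for 4 (1.4% of all). These 4 reference RNAs were chosen as the most abundant of their list, and the ratio was set up after the levels had been seen, so it is a description with no test. RN7SK itself had a log2 fold change of -0.05 (limma adjusted p = 0.944) and RMRP one of -0.16 (limma adjusted p = 0.833).

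Of 26 genes for histone RNA transcription, 3′ end formation and decay, all tested, 0 were called in either direction by limma or voom. At an unadjusted p of 0.05, 2 were lower (E2F1 and CDK2) and 1 higher (RNU7-1), against 7.19% and 6.31% of all tested genes. The RNU7-1 values correspond to the same number of fragments in every library, so that its FPKM differ through library depth only. A log2 fold change below 0 was found for 10 of the 26, and the median was 0.20. SLBP, the stem-loop binding protein, was at 13.6, 14.3 and 14.0 FPKM in the controls and 11.1, 12.2 and 7.34 FPKM in DDX17_KO, without overlap (log2 fold change -0.44, limma adjusted p = 0.386). E2F1, a factor of S phase entry, was at 18.5, 26.9 and 20.9 FPKM against 12.5, 13.4 and 12.4 FPKM, also without overlap (log2 fold change -0.73, limma adjusted p = 0.305). CDK2, the kinase that activates histone transcription with cyclin E, was at 10.8, 17.3 and 14.4 FPKM against 7.91, 8.96 and 6.79 FPKM (log2 fold change -0.75, limma adjusted p = 0.320). In these 3 genes DDX17_KO replicate 2 was below the controls, unlike in most histone genes. LSM11, a protein of the U7 particle, was the fourth of the 26 that was lower without overlap (12.6% of all tested genes). The U7 RNA gene RNU7-1 was at 1.29, 1.14 and 1.09 FPKM against 1.49, 2.97 and 1.93 FPKM, from equal fragment counts. The most abundant of the others were NCBP1, CPSF3 and CSTF2, at 0.38, 0.42 and -0.01 on the log2 scale.

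Among S phase genes, replacement histones and histone chaperones, 0 were called by limma or voom. At an unadjusted p of 0.05, 3, 3 and 2 of them were lower (7.19% of all tested genes) and 0 were higher (6.31% of all). Of 26 S phase and DNA replication genes, 20 were below 0 with a median of -0.30, and in 7 the DDX17_KO libraries were all below the controls (12.6% of all tested genes). Without DDX17_KO replicate 2, 2 of the 26 were called lower (1.72% of all) and 0 higher (1.95% of all), and 1 of the 14 tested chaperones was called lower and 1 higher. PCNA, the polymerase clamp, was at 161, 158 and 163 FPKM in the controls and 136, 143 and 128 FPKM in DDX17_KO (log2 fold change -0.24, limma adjusted p = 0.487). RRM1, MCM3 and FEN1 had overlapping groups, at 0.19, -0.21 and -0.40 on the log2 scale. Of 12 replacement histone genes with polyadenylated transcripts, 10 were tested, 9 were below 0 and the median was -0.31. The linker variant H1F0 was at 77.8, 99.8 and 77.2 FPKM against 51.1, 51.9 and 64.5 FPKM without overlap (log2 fold change -0.59, limma adjusted p = 0.355). H1FX and CENPA did not overlap either, at -0.62 and -0.50, and H2AFX and H2AFZ overlapped, at -0.43 and -0.31. H1F0, H1FX and CENPA were the 3 of 10 tested that were lower without overlap (12.6% of all tested genes). Of 15 histone chaperones, 14 were tested, 9 were below 0 and the median was -0.07. ASF1B and CHAF1B, which hand H3 and H4 to new DNA, were the 2 of 14 tested that were lower without overlap (12.6% of all tested genes). ASF1B and CHAF1B were at -0.68 and -0.62, and SSRP1 and SUPT16H of the FACT complex were at -0.22 and 0.72.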

How the data were processed

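The values used are the FPKM that the authors deposited in 1 table of 58302 genes and 6 libraries. Per the submitters' processing notes, the build was hg38 and the tools included HISAT2, StringTie, edgeR and CASAVA 1.8, with no role for each. Annotation, strand setting and library selection: not given in the sources used here. Samples were grouped by their labels, and replicate numbers came from the titles. GENCODE 29 supplied loci (73 of 75 members had the same one), lengths and GC content. Low FPKM values of genes with 1 transcript gave the fragments per library, with 99.97% to 100% of the values up to 20 fragments within 0.05 of a whole number.

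Tests were limma 3.58.1 (R 4.3.3) with an intensity trend on log2(FPKM + 1), for the 15620 genes that averaged 0.5 FPKM or more, with Benjamini-Hochberg adjustment over all of them, two-sided, at 0.05. Fold changes of low genes are understated on this scale. Tables and figures used Python 3.11.15, pandas 2.3.3 and matplotlib 3.10.9. In simulated data of 15620 genes, 16.4%, 79.1% and 93.9% of genes changed by 1, 2 and 3 log2 units were recovered, with 7 false calls. The simulated noise was independent between genes and libraries, and changes were placed only in genes with a mean log2 level above 2. The real libraries deviated together across genes, so that these rates may not hold for them or for genes of low level. The members and all lists were chosen with earlier results of these data known. Named genes were DDX17, the 3 members of highest mean in each class, the member of each class with the greatest fold change in size, members past the threshold or without overlap, and up to 4 genes of each list by mean. HIST1H2AC, HIST1H2BL, the other back-to-back partners, the gene lists' non-overlapping members, and the members called without libraries numbered 2 were named after their values were seen.

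Libraries of the same number deviated together across genes, with correlations of 0.300, 0.546 and 0.214 for numbers 1, 2 and 3, each over 0.1. A crossed pair, control replicate 1 and DDX17_KO replicate 3, had 0.330. The pairing comes from the data, not from the labels. Alternatives were a replicate block, pseudocounts of 0.1 and 0.01, no filter, a minimum mean of 2 FPKM, median-of-ratios scaling, quantile normalization, limma without the trend or robust, a spline correction for GC content and length (4 degrees of freedom each) with and without the block, voom on approximate fragments and each library left out. Leaving out both libraries numbered 2, with and without the block, was added after seeing the data.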

Additional observations from a re-analysis of the deposited data

How the results depend on the processing

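The median log2 fold change of the members, over all and by class, kept its sign under every alternative run and moved by less than 1 SD between replicates (0.46 for all members). This is a wide limit, because the SD was larger than the size of the median over all members (-0.44) and in H1, H2B and H4. With libraries left out one at a time the median of all members ran from -0.77 (without DDX17_KO replicate 2) to -0.21 (without DDX17_KO replicate 3). The median of all tested genes moved by less than 0.1 under each alternative. Genes called lower, 6 in all, were 3 with no filter and 10 with the GC and length correction, which called 1 gene higher and 1 member lower. With 1 library left out, genes called lower ran from 3 to 268 and higher from 0 to 304, and members lower from 0 to 15, with the upper ends all without DDX17_KO replicate 2. Without both libraries numbered 2, 860 genes were higher, 516 lower and 20 members lower. HIST4H4 ran from -0.35 (without control replicate 3) to 1.91 with 1 library left out. HIST1H1C ran from -0.39 to 0.0065, HIST1H4J from -0.66 to 0.18 and HIST1H4K from -0.61 to 0.035, with the upper ends without DDX17_KO replicate 3. With the replicate block, 0 genes were called higher, 4 lower and 0 members, and it changed no member's call. The block with the GC and length correction ended the call of HIST1H2BI (adjusted p = 0.0946). Why the counts moved was not tested. Depth limits the low members: 3 fragments at HIST1H2BI equal 1.47 FPKM in DDX17_KO replicate 2.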

Other observations

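HIST4H4 and AC010168.2, a gene just downstream of it on the same (minus) strand (chromosome 12, 14762504 to 14767931), were both low in control replicate 3. AC010168.2 was at 1.96, 1.87 and 0.0760 FPKM in the controls and at 2.08, 0.998 and 2.58 FPKM in DDX17_KO. H2AFJ, the next histone gene on that chromosome, was at 9.13, 18.7 and 13.5 FPKM against 11.8, 15.1 and 15.8 FPKM, so that control replicate 3 was not low there. HIST1H2BI and HIST1H3G, the neighbours whose groups did not overlap, are followed at 4252 bases from HIST1H2BI by HIST1H4H, which had a log2 fold change of -0.19 and overlapping groups. HIST1H4D, with a log2 fold change of -1.01, had an unadjusted p below 0.05 but an adjusted p of 0.369 (limma).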
